A study of Mus musculus with 9 samples.

Results

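Gm5662, Gm2016, Gm2022, and Gm8300 are 4 Eif1a-like genes of the mouse that lie in tandem on chromosome 12. They are 4 of the 25965 rows of the deposited expression table and were picked by name, because their transcripts were among those most reduced by knockdown of Dppa2 or Dppa4 in embryonic stem cells (ESCs). Their levels in control and knockdown cells are therefore given as a description, without a test. RNA was sequenced from E14 ESCs of the 129/Ola background, grown without feeders in serum and LIF. The knockdowns were made in a reporter line that carries fluorescent MERVL and Zscan4c reporter transgenes, as given in the study's text and not in the labels. Cells received control, Dppa2, or Dppa4 siRNA at the start and again at 48 h and were collected at 96 h, with 3 libraries per siRNA called A, B, and C. All 9 libraries were transfected, so an untransfected level is not included. The labels of all 9 libraries read rep3 followed by A, B, or C, and do not name the cultures behind these letters. Whether the letters stand for separate experiments or for parts of the same experiment is not given. The study calls the replicates of this experiment biological. The p-values below measure the spread between these libraries, which may all come from the same experiment.

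Eif1a encodes eIF1A, a small translation factor that binds the small ribosomal subunit and helps it to scan an mRNA and select the start codon. The mouse carries this gene on another autosome and a near-identical copy, Eif1ax, on the X chromosome, and both are broadly expressed. Eif1ad encodes a nuclear protein with an eIF1A-like domain. The Eif1a-like copies on chromosome 12 are known as transcripts of the 2-cell embryo, the stage of the major wave of mouse zygotic genome activation (ZGA), and of the rare "2C-like" ESCs that express such transcripts spontaneously. Dppa2 and Dppa4 are SAP domain proteins that bind chromatin in ESCs and are also made in the early embryo.

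Each of the 4 genes has a coding sequence of 432 bases in a single exon, whereas that of Eif1ax is split over 7 exons (GENCODE annotation of GRCm38). The coding sequences differ from one another at 4 to 8 bases, from Eif1a at 21 to 25, and from Eif1ax at 65 or 66, with no gaps in any of these alignments. The encoded proteins have 144 residues and differ from eIF1A at 7 (Gm8300), 8 (Gm2022), or 9 (Gm5662 and Gm2016) of them, that is, 93.8% to 95.1% are identical. For comparison, the proteins of Eif1a and Eif1ax differ at 2 residues, and that of Eif1ad could be aligned to the members with 25.9% to 28.1% identity only. Coding bases 60 to 149, counted from the A of the start codon, are shown and hold 3 of the 12 positions at which the 4 genes differ. Only stretches of 90 bases without a run of more than 30 bases shared with Eif1a were considered. Stretches set aside for this reason can hold more of the 12 positions. In the 4 genes the 3 positions are in capitals, and in Eif1ax the capitals are the 20 bases unlike all 4.
Gm5662: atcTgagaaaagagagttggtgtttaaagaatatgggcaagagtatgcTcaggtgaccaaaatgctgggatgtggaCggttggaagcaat
Gm2016: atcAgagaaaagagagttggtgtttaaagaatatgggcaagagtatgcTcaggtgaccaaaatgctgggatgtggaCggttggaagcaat
Gm2022: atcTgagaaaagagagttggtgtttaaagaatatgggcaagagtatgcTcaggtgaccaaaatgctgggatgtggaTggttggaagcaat
Gm8300: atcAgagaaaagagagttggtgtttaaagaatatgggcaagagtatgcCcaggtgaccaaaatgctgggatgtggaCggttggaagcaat
Eif1ax: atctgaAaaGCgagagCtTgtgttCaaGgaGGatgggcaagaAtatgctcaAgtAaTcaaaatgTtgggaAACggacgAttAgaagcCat
The stretches are coding exon sequence at chr12:87876644-87876733 on the plus strand for Gm5662, chr12:88271840-88271929 on the minus strand for Gm2016, chr12:87895429-87895518 on the plus strand for Gm2022, and chr12:87516956-87517045 on the plus strand for Gm8300. That of Eif1ax lies within chrX:159376424-159377507 on the plus strand and is joined across an intron. Relative to Gm5662, Gm2016 carries T63A, Gm2022 carries C136T, and Gm8300 carries T63A and T108C in this stretch. Over the whole coding sequence Gm5662 and Gm2016 are told apart by 4 substitutions, T63A, G271A, C276A, and A370G, the fewest of any pair.

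The near identity bears on every value below, since the reads have 50 bases and how reads with several matches were treated is not given in the sources used here. Of all 50-base stretches of the annotated transcript, 26.6% for Gm8300, 77.9% for Gm2016, 81.3% for Gm5662, and 97.2% for Gm2022 are found again in an annotated gene elsewhere. Gm5662 and Gm2016 share most with each other, with 75.2% of the stretches of Gm5662 found in Gm2016 and 72.1% the other way. By the annotated transcripts, Gm8300 is thus the member with the most sequence of its own, 1339 of its 1824 stretches. The Gm2022 model is short, with 435 bases, so its share rests on 386 stretches. That model covers chr12:87895370-87895804 only, whereas the deposited Gm2022 row is longer. Its share therefore does not describe all the sequence over which Gm2022 was quantitated. With Eif1a, Eif1ax, or Eif1ad the members share 1.95% (Gm2016), 2.63% (Gm8300), 3.61% (Gm5662), and 13.7% (Gm2022) of their stretches. From the side of those genes, 4.05% of the stretches of Eif1a and none of the 5123 of Eif1ax or the 2507 of Eif1ad recur.

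The deposited table places Gm8300 at chr12:87514316-87518253, Gm5662 at chr12:87874072-87877859, and Gm2022 at chr12:87892834-87896722, all on the plus strand, and Gm2016 at chr12:88270640-88274500 on the minus strand. Names are used here as deposited. In the GENCODE annotation the names of one pair are exchanged, so that the place of deposited Gm5662 is annotated as Gm2016 (ENSMUSG00000072905) and that of deposited Gm2016 as Gm5662 (ENSMUSG00000079029). Gm2022 is ENSMUSG00000113971, and Gm8300 is ENSMUSG00000079034.

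The deposited values are normalized log2 expression, scaled to library size and not to gene length, so levels are compared between libraries and not between genes. The lowest value of each library, between -4.50 and -4.47, stands for no reads. Read numbers were inferred from the order of the values, and the estimated totals were 20.7 to 39.7 Mreads per library with control siRNA (median 24.3), 16.8 to 26.7 (median 19.9) after Dppa2 knockdown, and 21.2 to 30.4 (median 29.0) after Dppa4 knockdown. Dppa2 fell from 7.12 ± 0.17 (SD, n = 3) to 3.64 ± 0.25 (SD, n = 3) with its siRNA, a log2 difference of -3.49 (SE 0.14, adjusted p = 2.1e-05, limma). Dppa4 fell from 7.06 ± 0.05 (SD, n = 3) to 6.13 ± 0.03 (SD, n = 3) with its own, a smaller difference of -0.93 (SE 0.08, adjusted p = 0.00028, limma). In these libraries the Dppa4 siRNA thus left more of its target transcript. These values are of RNA and do not give protein levels. By Western blot, the study found that each siRNA lowered the protein of both genes. The 7 markers of pluripotent ESCs (Pou5f1, Sox2, Nanog, Esrrb, Zfp42, Klf4, and Tfcp2l1) were all present, with a summed linear value of 2332 to 3139 over the 9 libraries.

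All 4 Eif1a-like transcripts were well expressed with control siRNA and were reduced to a few reads or none with either knockdown. Gm8300 had log2 values of 4.41, 3.90, and 4.16 in control libraries A, B, and C, of -2.13, -4.48, and -2.95 with Dppa2 siRNA, and of -4.25, -2.99, and -1.24 with Dppa4 siRNA. The control libraries lay close together, and all 6 knockdown libraries lay below them by at least 5.14, the smallest gap between a control and a knockdown library for any member. In reads these are about 718, 833, and 488 with control siRNA against 6, 0, and 2 with Dppa2 siRNA and 1, 4, and 9 with Dppa4 siRNA. The mean differences from control siRNA were -7.34 and -6.98 on the log2 scale.

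Gm2022 had log2 values of 4.94, 3.99, and 4.70 with control siRNA, of -2.63, -2.65, and -4.47 with Dppa2 siRNA, and of -2.61, -2.39, and -2.07 with Dppa4 siRNA. It was the only member with reads in all 3 Dppa4 siRNA libraries at a near-constant level (5, 6, and 5 reads), while Dppa2 siRNA left 4, 3, and 0 reads. Against about 1041, 886, and 725 reads with control siRNA, the mean log2 differences were -7.80 and -6.90.

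Gm2016 had log2 values of 3.93, 3.95, and 4.98 with control siRNA, of -3.09, -3.84, and -1.49 with Dppa2 siRNA, and of -2.99, -2.39, and -4.49 with Dppa4 siRNA. Control library C stood above A and B, and within each knockdown 1 library stood apart, C being the highest with Dppa2 siRNA (6 reads) and the lowest with Dppa4 siRNA (0 reads). The control libraries held about 514, 862, and 891 reads. Mean log2 differences were -7.09 and -7.57.

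Gm5662 had log2 values of 4.81, 4.04, and 2.15 with control siRNA, of -4.49, -3.84, and -4.47 with Dppa2 siRNA, and of -4.49, -4.49, and -3.40 with Dppa4 siRNA. It was the member with the widest spread with control siRNA and with the fewest reads after knockdown, 0, 1, and 0 with Dppa2 siRNA and 0, 0, and 2 with Dppa4 siRNA, against about 948, 917, and 111. The mean log2 differences, -7.93 and -7.79, were the lowest of the 14601 genes tested, that is, those above a log2 value of -2 in 3 or more libraries. This rank rests on the value given to rows with no reads. With a pseudocount of 1, Gm5662 had the smallest drop of the 4 members (-3.73 and -3.72), and with values under 3 reads raised to 3 reads its drop with Dppa2 siRNA (-6.39) was smaller than that of Gm2022 (-7.11), Gm2016 (-6.70), or Gm8300 (-6.56).

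**Figure D1:**
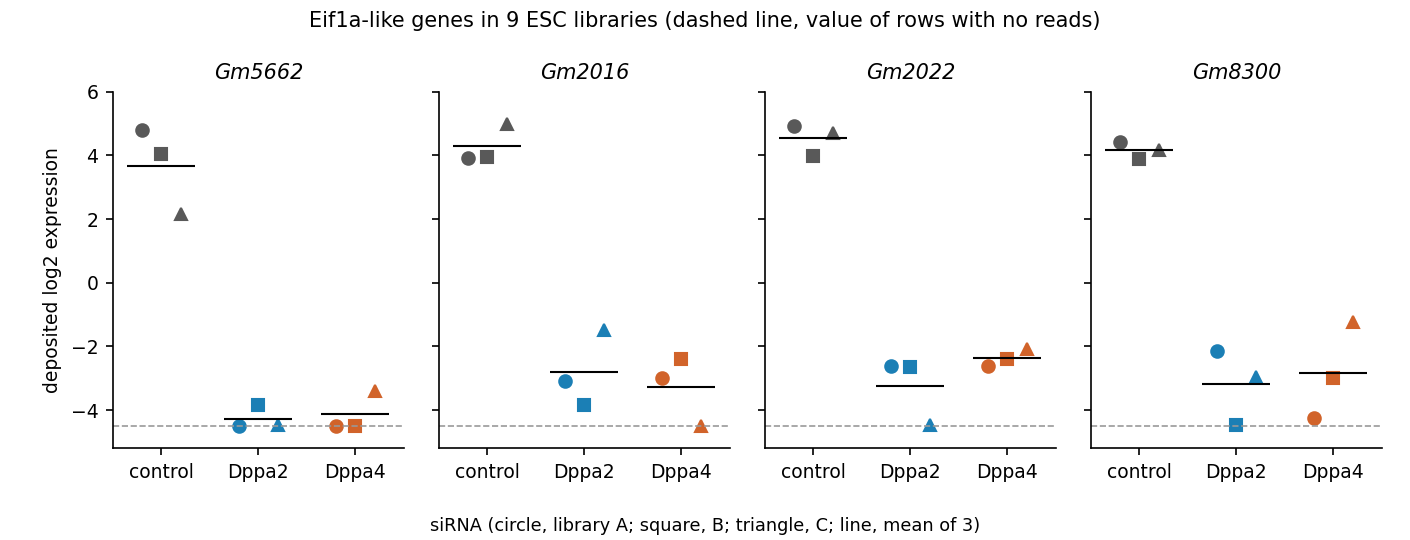
Deposited log2 expression (y axis) of Gm5662, Gm2016, Gm2022, and Gm8300 in each of 9 libraries, grouped by siRNA (x axis). Symbols mark libraries A, B, and C, the black line is the mean of 3, and the dashed line is the value of rows with no reads. In every panel the 3 control libraries lie at 2.15 or higher and the 6 knockdown libraries at -1.24 or lower.

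For none of the 4 genes did a knockdown library reach a control library. Over all 14601 genes, the 3 libraries lay below all 3 control libraries for 8.2% with Dppa2 siRNA and for 10.2% with Dppa4 siRNA, and nothing is read from the members' count, since they were picked on this contrast. The median difference over all these genes was 0.02 and 0.03, and the lowest 1% began at -2.44 and -2.28. Only 7 genes with Dppa2 siRNA and 6 with Dppa4 siRNA fell below -7. Among them were 4 and 2 of the members, with Gm8300 at -6.98 and Gm2022 at -6.90 just outside with Dppa4 siRNA. These counts carry no weight either, because the members were picked for strong reduction.

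The log2 value at so few reads depends on how the authors matched the libraries, so the share of reads left was also taken. This share was corrected for each library's inferred reads per unit of linear value between 300 and 700 reads. Through that correction it still rests on the authors' matched values, though not on those at few reads. With Dppa2 siRNA it was 0.0675% of control for Gm5662 (exact 95% interval 0.00171% to 0.376%), 0.352% for Gm2022 (0.141% to 0.726%), 0.523% for Gm8300 (0.226% to 1.03%), and 0.588% for Gm2016 (0.282% to 1.08%). With Dppa4 siRNA it was 0.105% for Gm5662 (0.0128% to 0.381%), 0.460% for Gm2016 (0.220% to 0.847%), 0.629% for Gm2022 (0.359% to 1.02%), and 0.715% for Gm8300 (0.390% to 1.20%). The highest upper end of these intervals was 1.20%, for Gm8300 with Dppa4 siRNA. It applies to the reads of the 3 libraries added together and does not bound the share in a single library. The intervals are Clopper-Pearson intervals on the reads of the 3 libraries of each siRNA added together, so the spread between libraries is not covered. They cover counting error only, and not all of it. The reads carry no molecular identifiers, so copies of 1 molecule cannot be recognized. In bulk RNA, fewer cells that express these genes and less RNA per cell cannot be told apart.

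Markers of 2C-like cells moved with the 4 genes. The summed linear value of Zscan4c, Zscan4d, Zscan4f, Tcstv1, Tcstv3, Zfp352, and Tmem92 was 66.0 to 69.2 in the control libraries, 0.517 to 1.19 after Dppa2 knockdown, and 0.517 to 0.880 after Dppa4 knockdown. Tcstv1 had no reads in any knockdown library, and Zscan4f had none with Dppa2 siRNA. The 6 markers of primitive endoderm, an extraembryonic lineage, summed to 4.27 to 6.18 with control siRNA, 6.54 to 9.31 after Dppa2 knockdown, and 11.5 to 12.8 after Dppa4 knockdown. Those of fibroblasts (5 genes) lay between 5.64 and 8.27 in all 9 libraries, with Postn at 0. Whether the makeup of the cultures changed, and what part this would have in the levels of the Eif1a-like genes, was not tested.

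The genes were not picked on the contrast between the 2 knockdowns, so it was fitted. The choice favored strong reduction, however, so both knockdowns lay near the floor and their difference was limited in advance. Gm5662 and Gm2022 also passed the filter only through the control libraries. The values below thus describe the contrast, and the missing calls carry no weight. Dppa4 siRNA minus Dppa2 siRNA was -0.48 for Gm2016 (95% interval -2.03 to 1.08, adjusted p = 0.974), 0.14 for Gm5662 (-1.32 to 1.60, adjusted p = 0.998), 0.36 for Gm8300 (-1.38 to 2.10, adjusted p = 0.990), and 0.89 for Gm2022 (-0.22 to 2.01, adjusted p = 0.805), with limma and Benjamini-Hochberg adjustment over 14601 genes. None passed the threshold of 0.05, and the intervals span up to about 2 log2 units on either side, so differences of several-fold between the knockdowns were not detectable at 0 to 9 reads per library. The sign itself changed for Gm5662, Gm2016, and Gm8300 when single libraries were left out. Over all genes tested, 3 (0.0205%) passed in this contrast, Dppa2, Dppa4, and 4930486L24Rik, which was named after its values were seen.

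**Figure D2:**
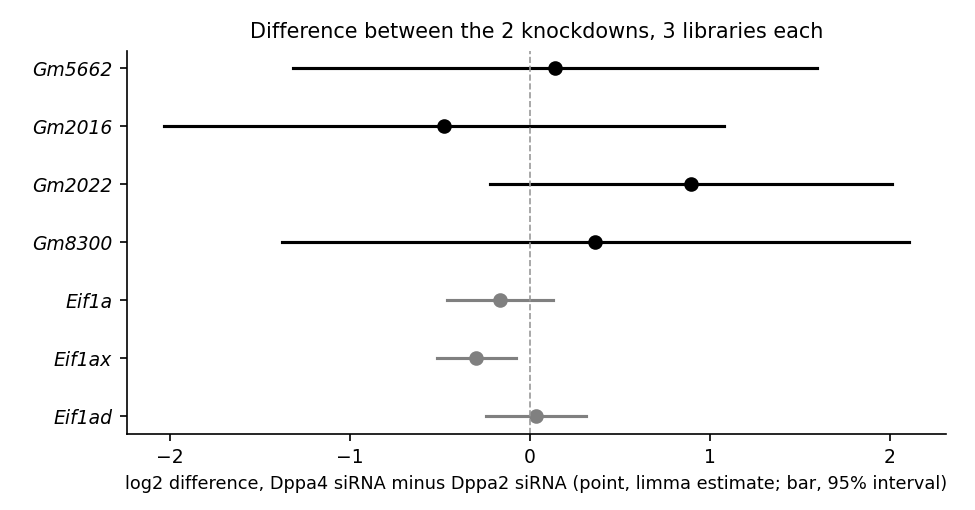
Log2 difference between Dppa4 siRNA and Dppa2 siRNA (x axis) for the 4 Eif1a-like genes (black) and for Eif1a, Eif1ax, and Eif1ad (gray), with points for the limma estimate and bars for its 95% interval over 3 libraries per siRNA. The intervals of the 4 Eif1a-like genes include 0 and are wider than those of the 3 abundant genes.

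The control libraries, which hold nearly all reads of these genes, also differed among themselves. The linear value of Gm5662 was 28.0, 16.4, and 4.45 in control libraries A, B, and C, a ratio of 6.29 between the highest and the lowest. Its SD on the log2 scale, 1.37 over the 3 libraries, exceeded that of 99.9% of the 9822 genes with at least 100 reads. For Gm8300 the highest and lowest libraries had a ratio of 1.42, and its SD of 0.26 exceeded that of 52.5% of those genes, about the middle.

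Gm2016 moved in the other direction, with linear values of 15.2, 15.4, and 31.6, so that its ratio to Gm5662 went from 0.543 in A and 0.939 in B to 7.10 in C. The sum of this pair was 43.2, 31.9, and 36.0, a ratio of 1.36 between the highest and the lowest library. The pair are the members that share most of their 50-base stretches, and whether the division of shared reads between them differed among libraries was not tested. The sum of all 4 genes was 95.1, 62.6, and 79.9, a ratio of 1.52. Of that sum, Gm8300 made up 22.3% to 23.8% and Gm2022 25.3% to 32.5% in the 3 libraries, against 5.57% to 29.4% for Gm5662 and 16.0% to 39.5% for Gm2016. Among the 4 genes, the value of Gm8300 was thus the steadiest in the control libraries. Whether steadiness goes with the share of a gene's own sequence was not tested.

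**Figure D3:**
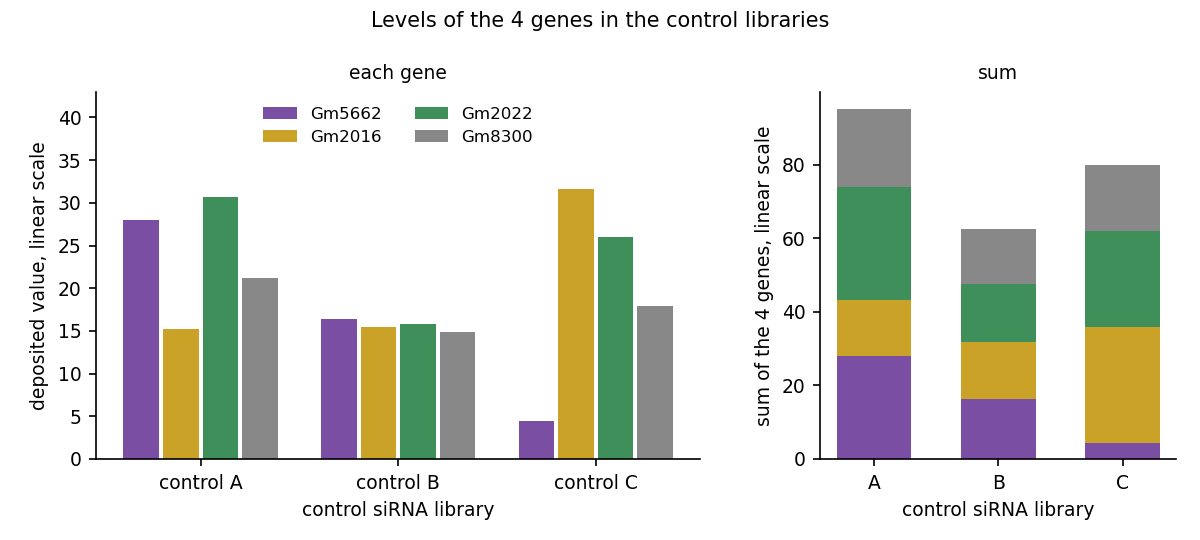
Deposited values on the linear scale (y axes) of the 4 Eif1a-like genes in control siRNA libraries A, B, and C, as single bars for each gene (left) and summed (right). Values are not scaled to gene length, so bars of 1 color are to be compared. Gm5662 falls to 4.45 in library C, where Gm2016 is highest at 31.6.

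The deposited table holds further copies of the gene near the 4 members. Of 18 annotated mouse genes whose protein aligns to eIF1A, 16 lie on chromosome 12, and 14 of these have a row in the table within 1 Mb of the outermost members, 4 of them the members and 10 others. The 14 rows span 807.2 kb, 8 on the plus and 6 on the minus strand, and the proteins of the 10 others are 91.7% to 95.1% identical to eIF1A. Between them lie 8 rows of other genes, among them Oog1, which encodes an oocyte protein.

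In the control libraries the 10 other rows had between 12 and 1192 reads in total, and none had more than 4 reads over the 3 libraries of a knockdown. CT485612.1, annotated as Gm5039, was the most abundant, with 1192 control reads against 4 with Dppa2 siRNA and 3 with Dppa4 siRNA, or 0.447% (exact 95% interval 0.122% to 1.15%) and 0.262% (0.0540% to 0.768%) of control. CT954323.2 (annotated Gm2035) fell from 518 reads to 0 and 1, CT030687.1 (Gm8332) from 510 to 0 and 0, and Gm4027 from 397 to 0 and 0. Against the floor of 3 reads per library, CT030687.1 was at least 42.5-fold lower with Dppa2 siRNA and at least 54.4-fold lower with Dppa4 siRNA, and Gm4027 at least 33.1-fold and at least 42.3-fold lower. All 386 stretches of CT030687.1 occur in another gene, so no read of this length can be assigned to it by sequence alone.

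AC079644.3 (annotated Gm6803) and AC079644.2 (Gm2056) had 143 and 129 control reads and no knockdown reads. The remaining rows, BB287469, Gm2075, AC211878.1 (Gm21319), and AC079644.1 (Gm16368), had 28, 28, 24, and 12 control reads and at most 1 read in a knockdown. No single knockdown library held more than 2 reads of any of the 10. With Dppa2 siRNA 9 of the 10 rows had no read in any of the 3 libraries and with Dppa4 siRNA 6 had none, whereas among all rows with reads in the 3 control libraries this was so for 1.85% and 1.35%. All 6 knockdown libraries were without a read for 6 of the 10, beside 0.957% of those rows. BB287469, counted among the 10, had no read in control library C either. At the depth of the weakest rows a loss of all reads says little, since for AC079644.1 the exact interval of the share left with Dppa2 siRNA reached 48.0%. Over all 14 rows, 11915 control reads compared with 30 and 48 reads in the knockdowns.

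**Figure D4:**
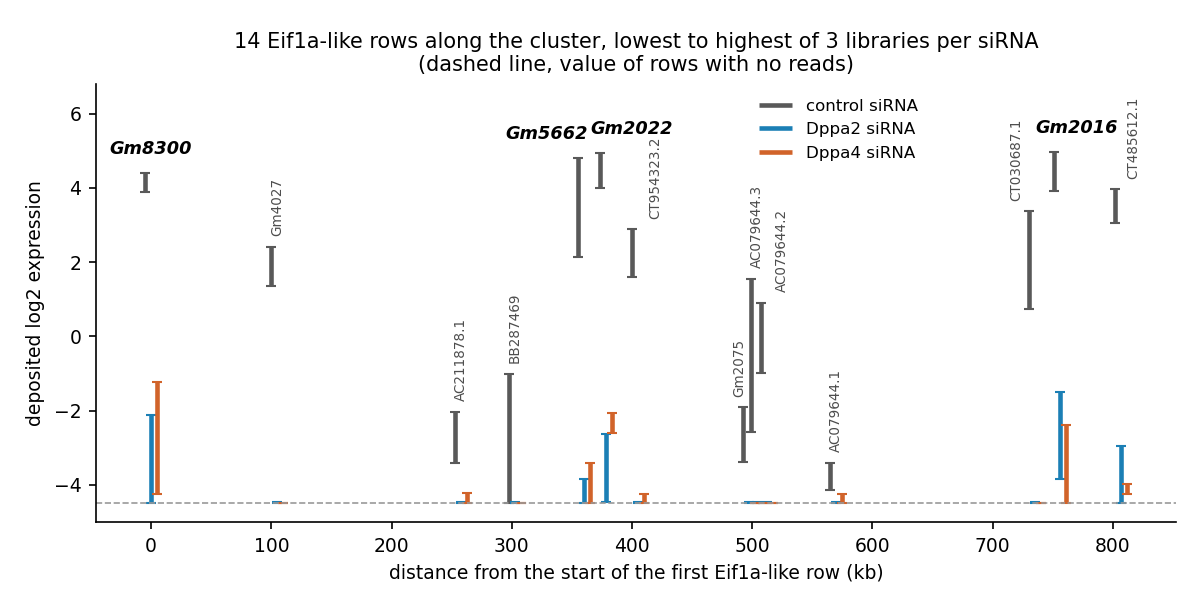
Deposited log2 expression (y axis) of the 14 Eif1a-like rows against their distance in kb from the start of the first, with bars from the lowest to the highest of 3 libraries for each siRNA, the 4 members in bold, and the value of rows with no reads dashed. For 13 of the 14 rows the control bar lies above both knockdown bars, and that of BB287469 reaches the dashed line.

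Only 5 of the 10 other rows had log2 values above -2 in at least 3 libraries, which for such rows means the 3 control libraries, so their calls are given without weight. All 5 were lower in both knockdowns (adjusted p between 6.1e-05 and 0.0020, limma), with log2 differences from -6.93 to -4.65 after Dppa2 knockdown and from -7.53 to -4.66 after Dppa4 knockdown. Of all tested genes, 2.27% were lower with Dppa2 siRNA and 2.34% with Dppa4 siRNA.

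The 33 other rows of the same stretch of chromosome 12 included 21 tested genes, of which 1 was lower and 0 were higher in each knockdown. Of all tested genes 3.44% were called in each knockdown in either direction, with 1.16% higher after Dppa2 siRNA and 1.1% higher after Dppa4 siRNA. The row is Gm2046, which was chosen after its values were seen, with 42, 84, and 62 reads with control siRNA and none in the 6 knockdown libraries. It too passed the filter only through the control libraries, so its call carries no weight, and its log2 differences of -5.21 and -5.22 are a description. It lies within the cluster at chr12:87973528-87980224, between 2 Eif1a-like rows and next to CT954323.1. Gm2046 was the only tested gene of the 21 within the cluster, and the others flank it. CT485612.2, also within the cluster, was not tested and had 70 control reads in total, against 0 with Dppa2 siRNA and 1 with Dppa4 siRNA. Oog1, Gm16381, AC211878.2, CT954323.1, Gm8587, and Gm2042, the remaining rows there, had no reads in any library. The median difference of the 21 genes was -0.03 and 0.07, beside 0.02 and 0.03 over all tested genes.

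None of the 3 comparison genes outside the cluster, Eif1a, Eif1ax, and Eif1ad, passed the threshold in any contrast. Eif1a, on chromosome 18, had log2 values of 7.27 ± 0.21 with control siRNA, 7.26 ± 0.17 with Dppa2 siRNA, and 7.09 ± 0.09 with Dppa4 siRNA (SD, n = 3). The differences from control siRNA were -0.01 (95% interval -0.31 to 0.28, adjusted p = 0.990, limma) and -0.18 (-0.47 to 0.12, adjusted p = 0.562, limma), and the groups overlapped.

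Eif1ax, at chrX:159372178-159389928, had 7.15 ± 0.12, 7.29 ± 0.11, and 6.99 ± 0.05 (SD, n = 3). It differed from control siRNA by 0.15 (95% interval -0.07 to 0.37, adjusted p = 0.577, limma) and by -0.15 (-0.37 to 0.07, adjusted p = 0.495, limma). All 3 Dppa4 siRNA libraries (6.94, 7.01, and 7.04) lay below all 3 control libraries (7.10, 7.06, and 7.28), as for 10.2% of tested genes, and below all 3 Dppa2 siRNA libraries (7.38, 7.17, and 7.33). The mean with Dppa4 siRNA differed from that with Dppa2 siRNA by -0.30 on the log2 scale (-0.52 to -0.08), with an unadjusted p of 0.0136 in limma that did not pass adjustment (adjusted p = 0.671). Eif1ad, at chr19:5366813-5371511, had 6.31 ± 0.22, 6.29 ± 0.12, and 6.32 ± 0.05 (SD, n = 3), with differences of -0.02 (-0.30 to 0.25, adjusted p = 0.981, limma) and 0.01 (-0.27 to 0.29, adjusted p = 0.985, limma). These intervals include small changes in either direction and reach nowhere near the differences of the 4 members. Summed on the linear scale, the 3 genes lay at 361 to 387 in the control libraries, at 387 to 392 with Dppa2 siRNA, and at 334 to 351 with Dppa4 siRNA, where every library was below every control library. These sums were not tested. The sum of the 4 members went from at least 62.6 to at most 0.801.

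**Figure D5:**
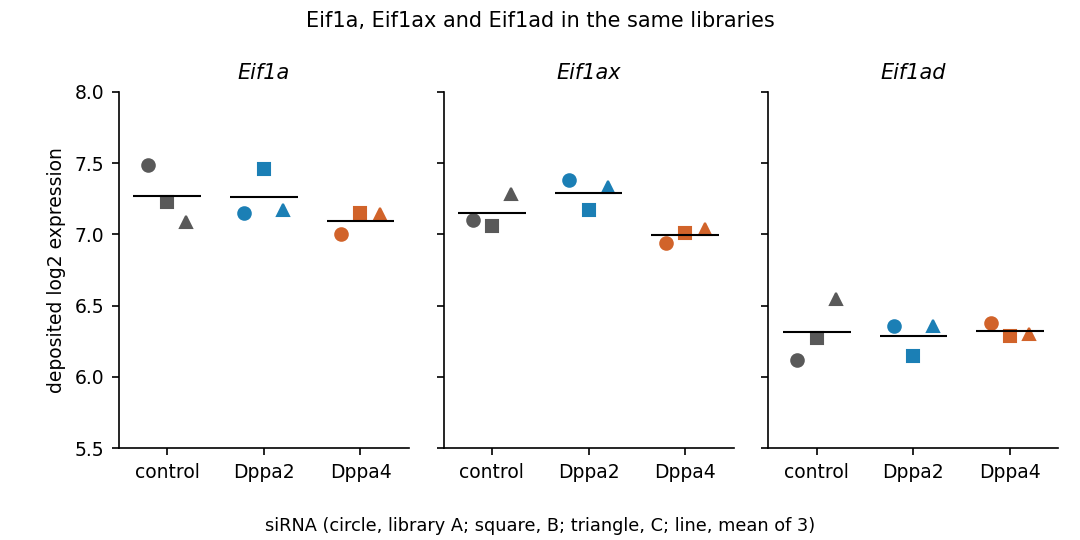
Deposited log2 expression (y axis, from 5.5) of Eif1a, Eif1ax, and Eif1ad in the 9 libraries, grouped by siRNA (x axis), with symbols for libraries A, B, and C and a line for the mean of 3. The group means differ by at most 0.30, for Eif1ax between the knockdowns.

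Other translation initiation factors likewise gave no call. Of 31 listed genes, 29 were found under these names and all 29 were tested. No gene passed with Dppa2 siRNA, with Dppa4 siRNA, or between the knockdowns, and 0, 1, and 1 had an unadjusted p under 0.05 in limma, beside 2292, 2634, and 987 of the 14601 genes. The largest differences with Dppa2 siRNA were -0.26 for Eif2s3y, an eIF2 subunit encoded on the Y chromosome, and 0.16 for Eif3k, an eIF3 subunit. With Dppa4 siRNA they were -0.28 for Eif4g3, an eIF4G scaffold protein, and 0.23 for Eif3g, another eIF3 subunit. Eif1, which encodes the start codon selection factor eIF1, changed by -0.14 (95% interval -0.82 to 0.54, adjusted p = 0.936, limma) and 0.00 (-0.68 to 0.68, adjusted p = 0.998, limma). Its paralog Eif1b differed by 0.08 (-0.49 to 0.66, adjusted p = 0.963, limma) and -0.11 (-0.68 to 0.46, adjusted p = 0.897, limma).

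The transcripts with the pattern most like that of the 4 genes lay on other chromosomes as well. By Pearson r with the mean log2 value of the 4 over the 9 libraries, genes near the top of the 14597 other tested genes were AW822073 on chromosome 10 (0.997) and B020004J07Rik, Gm12794, and Gm12800 on chromosome 4 (0.997 each). These r describe 9 points in 3 groups and mainly the step between control and knockdown. Gm12794 was the one with the most reads of these 4, with 205 to 477 reads in the control libraries and 0 to 2 in the knockdown libraries, and AW822073 the one with the fewest, with 8 to 19 and 0. In all, 29 genes had an r above 0.99, and Gm4027, at rank 28, was the nearest of the other Eif1a-like rows. Eif1a had an r of 0.29, and those of Eif1ax (0.00043) and Eif1ad (0.0087) were near 0.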

How the data were processed

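RNA-seq of 9 E14 ESC libraries was used, with 3 libraries per siRNA grouped by the sample labels. The authors trimmed reads with Trim Galore (0.4.5 in the submitters' processing notes), mapped them to GRCm38 with HISAT2 2.0.5, quantitated them strand-specifically over mRNA probes with SeqMonk, and matched the distributions of the libraries. The authors deposited normalized log2 expression, in which depth is not stated. Reads were inferred from the order of each library's distinct values, 1 read per step up to 300 and from the slope between 300 and 700 above. Whole reads were inferred for 63.5% to 71.8% of rows, too few for a count model, and totals are approximate (slopes at low reads differed by -0.48 to 0.04 on the log2 scale). Matching can shift the value of a row with few reads.

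The 14601 genes with log2 above -2 in at least 3 libraries were fitted with limma 3.58.1 (R 4.3.3, intensity trend, all 9 libraries, siRNA as the only term) in place of the study's count model. P-values were adjusted by Benjamini-Hochberg at 0.05. Where a group had no reads, folds were taken against a floor of 3 reads in each library. Proteins of GENCODE M21 were aligned to eIF1A with blastp (BLAST+ 2.17.0, E below 1e-10, at least 50% coverage). Tables and figures used Python 3.11.15 (Biopython 1.88, pandas 2.3.3, numpy 2.4.6, matplotlib 3.10.9, scipy 1.17.1).

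The members and lists were chosen with earlier results of these data known. Named were the 4 members, rows whose name starts with Eif1, Dppa2 and Dppa4, the Eif1a-like rows, listed initiation factors past the threshold or else the largest change in each direction, and the 5 most similar genes, of which 1 is not reported here. The alternatives were leaving out each library, a pseudocount of 1, median centring, other filters, no trend, a replicate block, and fits of 6 libraries. One that raises values of 0 to 2 reads to the value at 3 reads was chosen after seeing the data.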

Additional observations from a re-analysis of the deposited data

How the results depend on the processing

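The differences of the 4 genes from control siRNA stayed negative in every setting. With a pseudocount of 1 on the linear scale they shrank to -3.73, -4.13, -4.44, and -4.06 with Dppa2 siRNA and to -3.72, -4.20, -4.35, and -3.98 with Dppa4 siRNA (Gm5662, Gm2016, Gm2022, and Gm8300). With values under 3 reads raised to that at 3 reads, Gm5662 with Dppa2 siRNA came to -6.39. Leaving out each library in turn gave, in the same order, -8.69 to -7.36, -7.75 to -6.58, -8.10 to -7.18, and -7.87 to -6.70 with Dppa2 siRNA and -8.55 to -7.22, -8.02 to -6.97, -7.18 to -6.70, and -7.78 to -6.27 with Dppa4 siRNA.

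Between the knockdowns no setting gave a call for the members. Raising low values turned Gm5662 to -0.46 and Gm8300 to -0.14. Single libraries left out turned Gm5662 (-0.22 to 0.35, negative without Dppa4 siRNA library C), Gm2016 (-0.99 to 0.18, positive without library C of either knockdown), and Gm8300 (-0.43 to 1.07, negative without Dppa2 siRNA library B or Dppa4 siRNA library C), while Gm2022 stayed at 0.28 to 1.20. Eif1a with Dppa2 siRNA ranged from -0.11 to 0.10 (positive without control library A and without Dppa2 siRNA library A or C). Eif1ad ranged from -0.12 to 0.10 with Dppa2 siRNA, -0.088 to 0.13 with Dppa4 siRNA, and -0.038 to 0.066 between the knockdowns. None of the Eif1a, Eif1ax, and Eif1ad differences passed in any of 17 settings.

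Without any one control library (A, B, or C) none of the 10 other Eif1a-like rows met the filter (nor did Gm5662 and Gm2022), so their lower calls ranged from 0 to 5 with either siRNA, and those of the other rows nearby from 0 to 1, since Gm2046 also went untested. Without a filter 9 Eif1a-like rows were lower with Dppa2 siRNA, and 3 other nearby rows were lower and 7 higher with Dppa2 siRNA and 2 lower with Dppa4 siRNA. In that fit 895 rows were called lower and 8245 higher with Dppa2 siRNA, against 332 and 170 with the filter. A filter above 0 left 106 higher. The unfiltered fit includes rows without a read in any library, whose values differ only through the value that stands for no reads. Oog1, such a row, had means of -4.494 with control siRNA and -4.481 with Dppa2 siRNA. Higher calls without a filter are therefore not read as higher expression. With single libraries left out the lower calls over all genes ranged from 82 to 283 with Dppa2 siRNA and from 96 to 346 (342 with all) with Dppa4 siRNA, both lowest without control library B. The higher calls ranged from 26 to 130 (lowest without Dppa2 siRNA library C) and from 16 to 150 (160 with all, lowest without Dppa4 siRNA library B). The causes were not tested.

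Correlations of the deviations from the group means were -0.58 to 0.37 for libraries of the same letter and -0.66 to 0.69 for different letters. With 3 libraries per siRNA, these values cannot show whether the letters pair the libraries. A replicate block gave 205 lower and 33 higher calls with Dppa2 siRNA and 181 and 31 with Dppa4 siRNA, and with the 6 libraries compared fitted alone 208 and 22 were called with Dppa2 siRNA and 43 higher with Dppa4 siRNA. The block changed no call of the eIF1A genes or of the lists.

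Depth limits the knockdown levels, which rest on 0 to 9 reads per library and gene.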
